A study of Caenorhabditis elegans with 2 samples.

Results

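The peaks described here are the autosomal peaks at divergent promoters, in a precipitation of tagged DUXL-1, a homeodomain protein, from the nematode Caenorhabditis elegans. A peak was taken when its summit, the point of highest enrichment, lay on chromosomes I to V, more than 100 bp from any tRNA, snoRNA or snRNA gene, and inside the promoter windows of at least 1 plus-strand and at least 1 minus-strand protein-coding transcript. A promoter window runs from 1000 bp upstream to 200 bp downstream of an annotated start. Of the 1980 peaks of the thresholded list, 1560 were autosomal and 1327 of these lay away from small RNA genes. The rule was met by 254 peaks, which is 19.1% of the 1327 (95% Wilson interval 17.1 to 21.3). The comparison sets were 578 autosomal peaks with promoter windows of 1 strand only (one-direction promoters) and 495 autosomal peaks away from promoters, both also away from small RNA genes. The other 233 autosomal peaks lay at small RNA genes, and 8 of them also had starts on both strands. The divergent promoter peaks were selected on measured values, since the list itself holds the pooled candidates with the highest signal, so their signal is given as a description.

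Both samples are biological replicates of 1 group, strain OP470 (unc-119(tm4063) III; wgIs470), hermaphrodites collected as L4 larvae, the last larval stage. These animals carry, besides the unc-119 mutation, an integrated transgene from which duxl-1 is made with a C-terminal GFP-FLAG tag, and the precipitation used an antibody against GFP. Whole organisms were used, so the cells in which a peak arose are not known. No second strain or stage is compared, the control library of the authors was not analysed here, and a peak therefore need not mark binding by DUXL-1. Depth in reads is unknown, because the lists hold no counts.

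A divergent promoter is a stretch of DNA between a pair of genes that are transcribed away from each other, so that upstream elements are shared. In worms many pre-mRNAs are trans-spliced, so an annotated start can be the splice site and not the place where transcription begins. Homeodomains commonly recognise short AT-rich sites built on the core TAAT.

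Sequences under some of the strongest of these peaks are shown first, because several of them have words in common. The lines give the summit with 50 bp to either side, from the WBcel235 (ce11) genome. None holds an annotated UTR or coding base. Capitals mark words of 8 letters that at least 4 of the 30 strongest divergent promoter peaks hold, or that recur over all of them, as described further on. Among the windows left out are those ranked 6 (Y22D7AL.10 and hsp-60), 9 (cct-8 and Y55F3AR.2) and 11 (ska-3 and rps-12). The window ranked 6 held no such word. The one ranked 9 held only ACCGTACC and the one ranked 11 only AAGCGCGC, which none of the windows below hold. The lines therefore overstate how common shared words are among the strongest peaks.
rpl-20 and Y17G9B.5, chrIV:4750036-4750136, plus strand: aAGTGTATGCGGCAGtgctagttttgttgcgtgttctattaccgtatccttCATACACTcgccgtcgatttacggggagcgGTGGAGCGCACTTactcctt
K01G5.10 and tasp-1, chrIII:10759199-10759299, plus strand: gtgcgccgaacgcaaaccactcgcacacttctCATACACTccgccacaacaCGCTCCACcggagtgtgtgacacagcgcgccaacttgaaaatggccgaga
rpl-15 and K11H12.8, chrIV:654884-654984, plus strand: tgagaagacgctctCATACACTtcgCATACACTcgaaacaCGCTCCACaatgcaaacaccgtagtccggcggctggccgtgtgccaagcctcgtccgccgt
ifet-1 and rps-1, chrIII:4475603-4475703, plus strand: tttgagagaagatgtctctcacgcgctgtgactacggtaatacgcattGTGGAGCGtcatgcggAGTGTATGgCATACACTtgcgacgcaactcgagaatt
iff-2 and F54C9.14, chrII:8561391-8561491, plus strand: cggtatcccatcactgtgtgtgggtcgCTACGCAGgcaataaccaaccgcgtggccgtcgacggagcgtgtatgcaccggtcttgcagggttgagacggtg
C47E8.4 and hsp-90, chrV:14685714-14685814, plus strand: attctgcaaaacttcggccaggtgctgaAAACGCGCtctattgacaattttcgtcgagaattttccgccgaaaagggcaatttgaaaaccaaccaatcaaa
drr-2 and set-16, chrIII:13643689-13643789, plus strand: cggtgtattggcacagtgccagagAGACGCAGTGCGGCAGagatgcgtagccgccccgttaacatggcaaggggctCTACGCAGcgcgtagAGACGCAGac

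The first 4 of these windows each held both AGTGTATG and CGCTCCAC, read on either strand. No other divergent promoter peak held both. They are the 3 strongest divergent promoter peaks and the one ranked 7. AGTGTATG was found in 5 divergent promoter windows (1.97%), against 3 one-direction windows (0.519%) and 0.177% of windows centred on two-strand promoter sequence. Of those 5 peaks, 4 were among the 30 strongest. CGCTCCAC was found in 15 divergent promoter windows (5.91%), 7 of them among the 30 strongest, against 4 one-direction windows (0.692%) and 0.34% of two-strand positions. The window between drr-2 and set-16 held CTACGCAG and AGACGCAG. CTACGCAG was found in 8 divergent promoter windows, all 8 at peaks among the top candidates of both replicates, and in 1 one-direction window. These words were picked after the windows were read, so the counts describe the peaks they were picked from and carry no test.

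Over all 254 windows, a small set of 8-letter words recurred. Of the 32896 words of this length with both strands merged, 12 were held by at least 18 divergent promoter windows and by at most 1% of two-strand positions, and they group by overlap into 7 families, each named by its most frequent word. At least 1 of these 7 words was held by 112 divergent promoter windows (44.1%), against 1.38% of 508 windows centred 300 bp to either side of the same summits and 3.26% of two-strand positions. It was held by 30.1% of one-direction windows and 11.7% of windows away from promoters. The words were picked to be frequent in divergent promoter windows and rare at two-strand positions, so the gap between these follows from the choice. G+C content differs between the sets and was not matched. The peaks of one-direction promoters were not used to pick the words. A single family was held by 80 of the 112 windows, and 32 held words of 2 or more. Words were searched on both strands, and the examples below read in the direction that shows the word. For each word they are the 4 strongest divergent promoter peaks on chromosomes II to V (3 of these 4 for AGACGCAG) whose printed stretch holds no annotated UTR or coding base, so a stronger peak can be missing.

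GCGAGACC was the most frequent, in 26 divergent promoter windows (10.2%), 16 one-direction windows (2.77%) and 4 windows away from promoters (0.808%). These lines show it with 18 bases on either side, and all 4 have the letters tcg shortly before the word and a c after it.
gmps-1 and cap-2, chrII:10868918-10868961, minus strand: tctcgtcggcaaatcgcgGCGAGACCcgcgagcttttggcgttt
hat-1 and M03C11.3, chrIII:10407426-10407469, plus strand: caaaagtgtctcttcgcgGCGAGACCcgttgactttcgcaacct
wapl-1 and htz-1, chrIV:4445872-4445915, plus strand: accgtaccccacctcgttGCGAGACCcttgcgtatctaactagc
npp-3 and top-2, chrII:11874874-11874917, plus strand: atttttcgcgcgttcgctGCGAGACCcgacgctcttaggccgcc
gmps-1 encodes a GMP synthetase, cap-2 a subunit of the actin capping protein, htz-1 the histone variant H2A.Z and top-2 a type II topoisomerase. The peak between gmps-1 and cap-2 had a signal of 270, the one between wapl-1 and htz-1 181 and the one between npp-3 and top-2 172.

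ACTCCTCT was found in 21 divergent promoter windows (8.27%), 23 one-direction windows (3.98%) and none of 495 windows away from promoters (interval up to 0.77%). CTAGGCCA was found in 18, 20 and 3 windows (7.09%, 3.46% and 0.606%). Both words were held by 9 divergent promoter windows, which is 9 of the 21 with ACTCCTCT and 9 of the 18 with CTAGGCCA. All 4 examples of each are shown, ACTCCTCT first.
F01D4.5 and ced-5, chrIV:10483910-10483953, plus strand: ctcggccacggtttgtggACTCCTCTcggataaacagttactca
W02H5.16 and W02H5.19, chrV:2638716-2638759, plus strand: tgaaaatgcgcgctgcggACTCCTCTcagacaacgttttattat
fbxb-85 and hex-3, chrIII:10848977-10849020, minus strand: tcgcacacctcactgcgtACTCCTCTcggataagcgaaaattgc
lron-10 and hpr-9, chrIII:10621396-10621439, minus strand: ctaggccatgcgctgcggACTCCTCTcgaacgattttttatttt
rps-23 and dpm-3, chrIV:12391338-12391381, minus strand: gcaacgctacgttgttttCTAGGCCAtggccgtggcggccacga
F01D4.5 and ced-5, chrIV:10483866-10483909, minus strand: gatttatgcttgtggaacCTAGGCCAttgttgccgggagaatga
lron-10 and hpr-9, chrIII:10621414-10621457, minus strand: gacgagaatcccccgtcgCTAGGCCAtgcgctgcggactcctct
Y75B8A.24 and Y75B8A.25, chrIII:12273788-12273831, plus strand: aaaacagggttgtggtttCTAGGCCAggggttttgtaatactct
ced-5 encodes a protein needed for the engulfment of dying cells. Peaks with ACTCCTCT lay at short intervals between starts, with a median of 284 bp, against 467 bp over all head-to-head divergent promoter peaks. The strongest of them lay between cux-7 and C07H6.2, with a signal of 405 in the pooled list, 219 in replicate 1 and 181 in replicate 2.

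GCGCCAGC was found in 20 divergent promoter windows (7.87%), 30 one-direction windows (5.19%) and 2 windows away from promoters (0.404%). AAACGCGC was found in 19, 36 and 2 windows (7.48%, 6.23% and 0.404%), and 9 divergent promoter windows held both. In the window between dnj-19 and nhr-47 these words overlap in a single run. GCGCCAGC lay closest to the summit of the 7 families, at a median distance of 10.5 bp, against 15.5 to 25.5 bp for the others.
haf-3 and F57A10.2, chrV:15766389-15766432, minus strand: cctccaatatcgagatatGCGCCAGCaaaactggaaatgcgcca
dnsn-1 and C24H12.4, chrII:411044-411087, minus strand: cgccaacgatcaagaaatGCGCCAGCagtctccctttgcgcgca
metl-1 and W02B12.11, chrII:11473756-11473799, plus strand: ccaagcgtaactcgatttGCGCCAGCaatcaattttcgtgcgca
dnj-19 and nhr-47, chrV:5505206-5505249, plus strand: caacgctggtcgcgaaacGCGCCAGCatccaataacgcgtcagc
C47E8.4 and hsp-90, chrV:14685724-14685767, plus strand: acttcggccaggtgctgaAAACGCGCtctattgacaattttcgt
dnsn-1 and C24H12.4, chrII:411067-411110, minus strand: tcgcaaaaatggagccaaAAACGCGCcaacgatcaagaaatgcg
rsp-2 and rsp-1, chrII:11453158-11453201, plus strand: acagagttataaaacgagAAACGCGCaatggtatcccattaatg
dnj-19 and nhr-47, chrV:5505202-5505245, plus strand: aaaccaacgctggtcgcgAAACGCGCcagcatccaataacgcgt
dnj-19 encodes a chaperone of the DnaJ family, and rsp-1 and rsp-2 encode SR proteins, which act in splicing.

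AAGTGCGC was found in 19 divergent promoter windows (7.48%), 27 one-direction windows (4.67%) and 2 windows away from promoters (0.404%). AGACGCAG was found in 22 divergent promoter windows (8.66%), 64 one-direction windows (11.1%) and 48 windows away from promoters (9.7%).
rpl-20 and Y17G9B.5, chrIV:4750104-4750147, minus strand: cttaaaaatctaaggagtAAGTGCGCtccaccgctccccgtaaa
ecps-1 and atx-2, chrIII:10461309-10461352, minus strand: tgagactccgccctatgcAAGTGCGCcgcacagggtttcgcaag
Y71H2AM.20 and cox-6B, chrIII:2785992-2786035, plus strand: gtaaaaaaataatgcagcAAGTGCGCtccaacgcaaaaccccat
jmjd-4 and mev-1, chrIII:10334145-10334188, minus strand: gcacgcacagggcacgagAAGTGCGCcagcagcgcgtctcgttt
drr-2 and set-16, chrIII:13643695-13643738, plus strand: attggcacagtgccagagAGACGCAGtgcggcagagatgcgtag
efl-1 and fbxa-90, chrV:16965830-16965873, plus strand: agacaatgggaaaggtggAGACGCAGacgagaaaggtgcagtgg
mrps-7 and Y57G11C.3, chrIV:14767869-14767912, minus strand: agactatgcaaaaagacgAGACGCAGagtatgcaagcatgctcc
efl-1 encodes an E2F transcription factor, cox-6B a subunit of cytochrome c oxidase and mrps-7 a protein of the mitochondrial ribosome.

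Counts were also taken over whole promoter stretches. Of all 2758 autosomal stretches of two-strand promoter sequence, 253 (9.17%) held the summit of a divergent promoter peak. Of the 18742 stretches of one-strand promoter sequence, 559 (2.98%) held the summit of a one-direction peak. Among the two-strand stretches with GCGCCAGC anywhere in them, 23 of 47 held a summit (48.9%), and among those with ACTCCTCT 25 of 77 (32.5%). For AAGTGCGC the count was 27 of 94 (28.7%), for CTAGGCCA 22 of 84 (26.2%), for AAACGCGC 24 of 106 (22.6%), for GCGAGACC 33 of 156 (21.2%) and for AGACGCAG 35 of 202 (17.3%). The words were picked from windows under these same summits, so shares above 9.17% in two-strand stretches follow in part from the choice. In one-strand stretches, which were not used to pick the words, the share ran from 6.13% for CTAGGCCA to 18.5% for GCGCCAGC (40 of 216). Longer stretches are more likely to hold any word, and stretch length was not matched. Among candidates of the pooled list at divergent promoters that ranked below the thresholded 1980, 89 of 855 windows (10.4%) held at least 1 of the 7 words.

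The homeodomain core TAAT occurred in 33.9% of divergent promoter windows, against 64.2% and 68.1% of the windows 300 bp to the left and right and 65.7% of two-strand positions. It occurred in 45.8% of one-direction windows and 44.4% of windows away from promoters. TAATTA was found in 4 windows (1.57%, interval 0.614 to 3.98), against 5.34% of two-strand positions, 2.42% of one-direction windows and 1.21% of windows away from promoters. TAATCA was found in 3 (1.18%, against 6.18% of two-strand positions) and TAATGA in 4 (1.57%, against 6.31%). TAAT and ATTA with 2 or 3 bases between them, the arrangement of paired homeodomain sites, were found in none of the 254 windows (interval up to 1.49%), against 0.598% and 0.608% of two-strand positions. Base composition moves with these counts. Within 40 to 50% G+C, TAATTA was found in 1 of 128 divergent promoter windows (0.781%), against 1.6% of two-strand positions, and the part of base composition in the rest was not tested. GAGACG was found in 38 windows (15%, interval 11.1 to 19.9), against 3.46% of two-strand positions, but it was in 17.1% of one-direction windows and 16.8% of windows away from promoters. Within 40 to 50% G+C it was in 11.7% of divergent promoter windows, against 6.47% of two-strand positions. CACGTG, the E-box, was found in 12 windows (4.72%), against 1.79% of two-strand positions, 3.46% of one-direction windows and 7.27% of windows away from promoters. TATAAA was found in 6 windows (2.36%), against 13% of two-strand positions. Within 40 to 50% G+C, TATAAA was in 3.91% of divergent promoter windows (5 windows), against 5.42% of two-strand positions. Within 50 to 60% it was in 1.15% (1 window), against 1.74%. The part of base composition in that gap was not tested. TTTCAG, which resembles the worm splice acceptor, was found in 20 windows (7.87%), against 21.6% of two-strand positions. It was in 3.91% of divergent promoter windows against 17.5% within 40 to 50% G+C, and the order turned within 50 to 60%, with 11.5% against 7.36%.

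The summits sat on a narrow rise in G+C content with a dip on either side. Median G+C content within 50 bp of the summit was 48.5% (quartiles 43.6 to 51.5), against 35.6% in the windows 300 bp to the left and to the right and 34.7% at two-strand positions. It was 45.5% at one-direction summits and 44.6% away from promoters. In 25 bp windows, mean G+C content was 52.5% at the summit, 29.1% and 28.8% at 125 bp to its left and right, and 34.8% and 36.1% at 200 bp. One-direction summits had 49% at the summit and 34.8% and 34.7% at 125 bp. G+C content at the summit was above both windows at 300 bp in 200 of 254 peaks (78.7%), against 396 of 578 one-direction peaks (68.5%). CG dinucleotides numbered 7.46 ± 2.86 per window (SD over 254 peaks), against 3.48 ± 2.38 over two-strand positions. Across divergent promoter peaks the Spearman correlation of pooled signal with G+C content was 0.236 (n = 254), a description over peaks of the same pair of libraries.

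**Figure D1:**
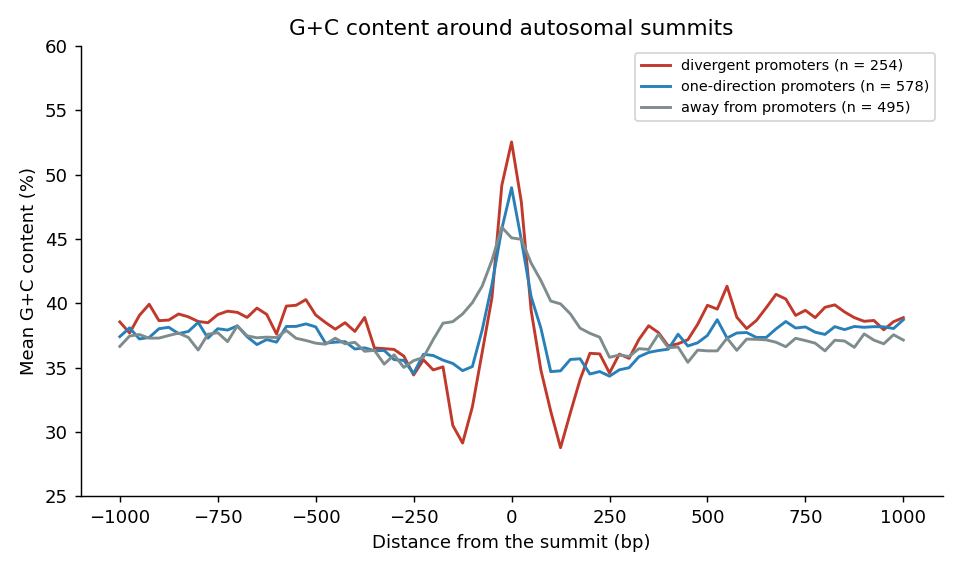
Mean G+C content (%) against distance from the summit (bp) for autosomal peaks at divergent promoters, at one-direction promoters and away from promoters; each line is the mean over the peaks of that set. The divergent promoter line peaks at 52.5% and drops to 29.1% and 28.8% at 125 bp on either side, where one-direction peaks are at 34.8% and 34.7%.

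Two-strand promoter sequence made up 2.67% of autosomal length and 9.88% of promoter sequence, and held 30.5% of the promoter peaks. The density was 115 peaks per Mb of two-strand sequence, against 28.8 one-direction peaks per Mb of one-strand sequence and 8.24 per Mb elsewhere. Density in two-strand sequence was 130 per Mb on chromosome I (53 peaks), 98.3 on II (41), 170 on III (62), 98.2 on IV (41) and 95.9 on V (57). It exceeded the one-direction density of the same chromosome on all 5, which ranged from 23.6 to 36.9 per Mb.

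The starts on both sides pointed away from each other at 253 of the 254 peaks (99.6%), as at 99.4% of two-strand positions. At the remaining peak the starts of rpb-7, a subunit of RNA polymerase II, and Y54E10BR.2 overlap by 3 bp. The distance between the opposite starts had a median of 467 bp (quartiles 299 to 707), against 707 bp (442 to 1020) over two-strand positions. These positions are spaced evenly along the sequence, so a pair of starts counts among them by the length of its stretch. The gap between these medians can follow in part from that weighting. A median over all pairs of starts was not computed, so a preference for short distances was not tested. The shortest distance was 15 bp, between F25H9.6 and F25H9.7 (signal 185), and the longest 1659 bp, between mif-4 and ipla-6 (signal 137). Density was highest between 250 and 500 bp, with 103 peaks and 239 per Mb. It was 165 per Mb up to 250 bp, 110 from 500 to 750 bp, 81.8 from 750 to 1000 bp and 36.6 beyond 1000 bp. Density per Mb depends in part on the length of the stretches, which changes with the distance between starts. The share of start pairs with a summit was not computed by distance. The signal did not follow the distance, with a Spearman correlation of -0.00563 over 253 head-to-head peaks.

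Most summits lay between the starts. At 239 peaks (94.1%) the summit was upstream of both starts, against 68.1% of two-strand positions. It lay in the middle 50% of the interval at 148 of 253 head-to-head peaks (58.5%), against 41.8% of positions. Both shares also count summits or positions outside the interval, which were more common among positions. The share among those between the starts was not computed. The nearest start was at a median of 139.5 bp (quartiles 59.5 to 215), against 152 bp for two-strand positions and 224 bp for one-direction summits. For divergent promoter peaks and two-strand positions this is the nearer of a plus-strand and a minus-strand start. One-direction summits have promoter windows on the plus or the minus strand, not both. The gap to 224 bp therefore follows in part from the definition, and the rest was not tested. Within 50 bp of a start lay 54 summits (21.3%), against 18.3% of positions. The nearer start was on the plus strand at 137 peaks and on the minus strand at 117. By annotation, 198 summits (78%) lay between genes, 22 (8.66%) in a non-coding gene, 15 (5.91%) in a UTR, 15 (5.91%) in an intron and 4 (1.57%) in a coding exon. The 254 peaks belonged to 253 gene pairs, because ecps-1 and atx-2 have 2 peaks between them.

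**Figure D2:**
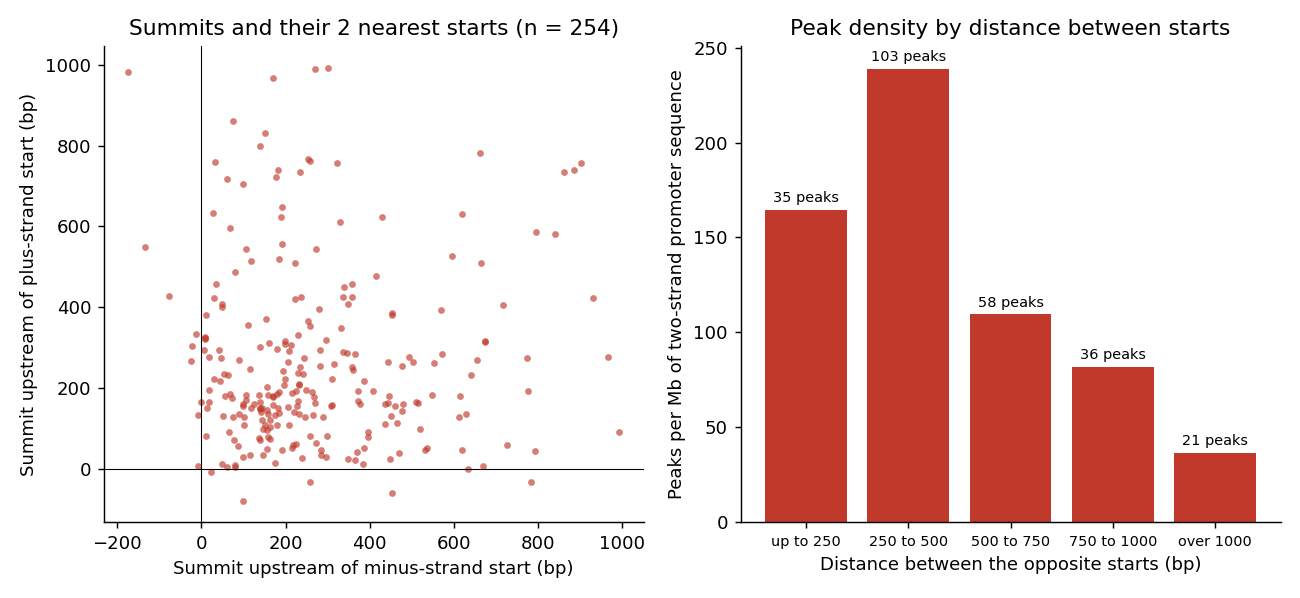
Left, each of the 254 divergent promoter peaks by the distance of its summit upstream of its nearest minus-strand start and its nearest plus-strand start (bp; negative values are downstream). Right, divergent promoter peaks per Mb of two-strand promoter sequence by the distance between the opposite starts, from 165 up to 250 bp and 239 at 250 to 500 bp to 36.6 beyond 1000 bp. Density per Mb depends in part on the length of the stretches, which was not matched.

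The share of divergent promoter peaks found in both replicates rested on how overlap was counted and was highest among the stronger ones. Signal is the enrichment that the authors' peak caller gave a region. It is not scaled between lists, so replicate values are read by rank within each list. Pooled signal had a median of 108 (quartiles 80.9 to 172, range 65.2 to 787), against 91.7 at one-direction promoters and 80.6 away from promoters. A candidate of each replicate overlapped 249 of the 254 peaks. Among the 1980 strongest candidates of both replicates were 161 (63.4%, interval 57.3 to 69.1), against 47.9% of one-direction peaks and 37.8% of peaks away from promoters. With a reciprocal overlap of 50% the share fell to 37.8%. Peaks among the strongest candidates of replicate 1 only numbered 42, of replicate 2 only 31, and of neither 20. Among the stronger 127 divergent promoter peaks 123 were in both, and among the weaker 127 it was 38. Pooled signal comes from the alignments of these same replicates, so the gap between stronger and weaker peaks follows in part from the split. The divergent, one-direction and other sets also differ in pooled signal, and their shares in both replicates were not compared at like signal. The Spearman correlation of signal between replicates was 0.643 over 249 divergent promoter peaks, against 0.384 over 557 one-direction peaks. The quartiles of pooled signal were also wider apart in the divergent promoter peaks, at 80.9 and 172 against 73.5 and 126.

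**Figure D3:**
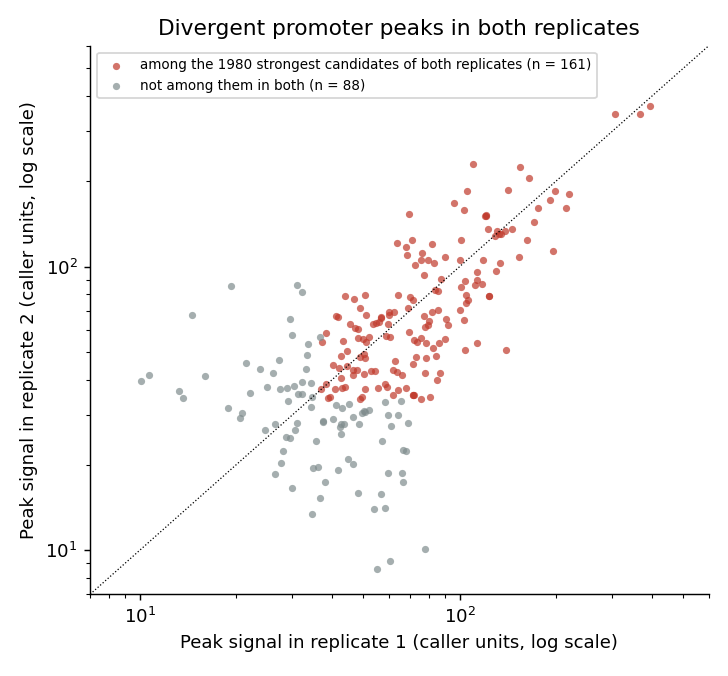
Signal of each divergent promoter peak in replicate 1 and in replicate 2 (units of the authors' peak caller, log axes), for the 249 peaks with a candidate in both; the dotted line marks equal values. Red points are the 161 peaks among the 1980 strongest candidates of both replicates, and grey points are the rest. A peak that is low in either replicate is grey by this rule, so the wider scatter of grey points follows in part from the colouring.

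Ranking the candidates by signal gave the same order in every list. Divergent promoters held 33.8% (interval 28.5 to 39.6) of the autosomal summits away from small RNA genes among the 495 strongest pooled candidates. They held 21.6% of those ranked 496 to 990, 12.7% to rank 1980, 6.66% to rank 5000 and 2.93% among ranks 20001 to 30000. Replicate 1 alone gave 29.6%, 19.4%, 11.9%, 7% and 2.77%. Replicate 2 alone gave 30.2%, 16.8%, 10.1%, 5.54% and 3.07%. The lowest bin is close to the 2.67% of autosomal length that is two-strand sequence. Median G+C content of divergent promoter summits moved with rank, from 50.5% in the strongest pooled bin to 38.6% in the weakest.

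**Figure D4:**
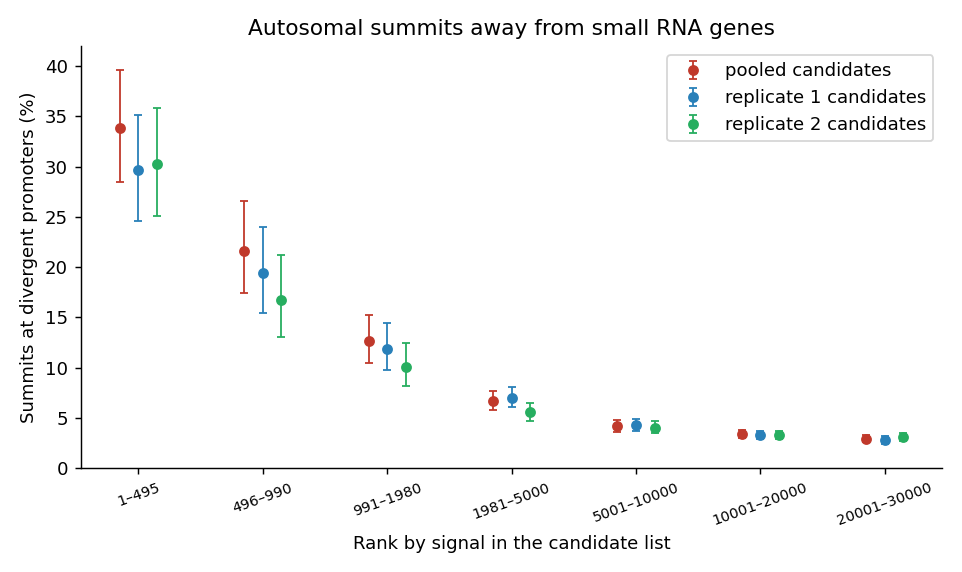
Share of autosomal summits away from small RNA genes that lie at divergent promoters (%), by rank of the candidate in the pooled list and in each replicate's list; bars are 95% Wilson intervals over summits. All 3 lists decline from the strongest bin (33.8%, 29.6% and 30.2%) to the weakest (2.93%, 2.77% and 3.07%).

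Of the 15 strongest divergent promoter peaks found in both replicates, 6 had a cytosolic ribosomal protein gene on a side and 3 a chaperone gene. The peak between rpl-20, a protein of the large ribosomal subunit, and Y17G9B.5 had a pooled signal of 787, with 395 in replicate 1 and 367 in replicate 2. The one between K01G5.10 and tasp-1 had 729 (366 and 344), and the one between rpl-15 and K11H12.8 had 678 (307 and 347). After these 3 there was a gap to the peak between cux-7 and C07H6.2, at 405. atp-1, the alpha subunit of ATP synthase, shared a peak with mcrs-1 (378, with 199 and 184). hsp-60, the mitochondrial chaperonin, shared one with Y22D7AL.10 (377, with 155 and 224). rps-1, of the small ribosomal subunit, shared one with ifet-1 (374, with 215 and 161). iff-2, a translation factor of the eIF5A family, had its peak 74 bp upstream (373, with 164 and 205). cct-8, a subunit of the cytosolic chaperonin, shared one with Y55F3AR.2 (363, with 191 and 172). That summit lay 143 bp upstream of Y55F3AR.2 and 478 bp upstream of cct-8. The next were at hsr-9 and rps-19 (353), ska-3 and rps-12 (341), C47E8.4 and hsp-90 (326), the histone genes his-67 and his-68 (315), drr-2 and set-16 (315) and rps-20 and ekl-4 (300). All 15 ranked 185 or better in both replicates' lists.

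The weakest peaks were those of C14B9.10 and rpl-21 (65.5), of rps-18 and sec-61.A (65.4) and of Y75B8A.31 and pph-4.1 (65.2). None of the 3 was among the strongest candidates of both replicates. Where each replicate had a candidate (249 peaks), the ratio of signal, which includes any difference in scale between the lists, was highest for replicate 1 over replicate 2 at C52E2.4 and C52E2.5 (77.9 in replicate 1 and 10.1 in replicate 2), mdt-22 and nep-26 (60.7 and 9.2) and krr-1 and gei-6 (55.2 and 8.57). It was lowest at ekl-1 and prpf-4 (14.6 and 67.5), idhg-1 and mlcd-1 (19.3 and 85.5) and K08F9.4 and K08F9.1 (10.1 and 39.6). The ranks of these 6 ran from 8266 to 27160 in the list of the lower replicate and from 294 to 1392 in the other. The remaining 5 peaks have no such ratio, 2 of them without a candidate in replicate 1 and 3 without one in replicate 2. Near the limits of the rule, the peak of VC5.2 and mys-1 had its summit 993 bp upstream of a start, and that of C50B6.3 and nasp-2, at 1003 bp, was left out. The peak of rps-26 and tmem-107 lay 110 bp from a small RNA gene, and that of F09G2.2 and attf-2, at 84 bp, was left out. Downstream of a start, the peak of ehbp-1 and nstp-10 lay at 174 bp and that of ctps-1 and pus-1, at 266 bp, was left out. The strongest candidate at a divergent promoter below the list, between nhr-101 and pms-2, had a signal of 64.1.

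Divergent promoter peaks reached 523 protein-coding genes out of 5483 autosomal genes with two-strand promoter sequence (9.54%). Against that share, 17 gene lists drawn by symbol were counted. Function was not checked gene by gene, so a gene in a list need not act in the process that names the list. Of the cytosolic ribosomal protein genes, 29 of 53 had one (54.7%, at 26 distinct peaks), with signals from 65.4 to 787. The ribosomal protein peaks had a median signal of 136, against 107 over the other 228 divergent promoter peaks, and 8 of them were among the 30 strongest. At 23 peaks exactly 1 of the pair of genes is for a ribosomal protein, and there the summit was nearer to the partner at 14 and nearer to the ribosomal protein gene at 9. The median distance upstream of the start was 308 bp for the ribosomal protein gene and 185 bp for the partner. At 3 peaks both genes are for ribosomal proteins (rpl-36 with rps-14, 136; rps-10 with rpl-24.1, 107; rpl-39 with rps-30, 73.9).

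Of the other 16 lists, 12 lay above 9.54%, among them 3 close to it at 12.5 to 13.3% (mitochondrial ribosomal proteins, replication and cell cycle, vesicle traffic). Translation factors had 6 of 20 (iff-2, 373; eef-2, the translocation factor, 270; eef-1G, 236; eef-1B.1, 205). Chaperones had 12 of 32 (hsp-60, cct-8, hsp-90 and dnj-13 at 291), and proteasome subunits 6 of 24 (rpn-3, 138; pas-4, 96.4; rpt-2, 90.5; rpn-5, 75.2). Splicing genes had 10 of 29 at 8 peaks, led by prp-19 (190), the pair rsp-1 and rsp-2 (171) and prp-8 (162), a core protein of the spliceosome. Respiratory chain and ATP synthase genes had 5 of 21 (atp-1, 378; cox-6B, 149; nuo-1, 80.1; atp-5, 78.8), and mitochondrial ribosomal proteins 4 of 30 (mrps-7, 172; mrps-35, 122; mrpl-45, 96.1; mrpl-12, 88.4). RNA polymerase and general transcription factors had 3 of 15 (taf-4 at 151, rpb-3 at 96.4, rpb-7 at 69.9). The ubiquitin ligation list, which takes every ubc-, uba- and ubq- symbol whatever its role, had 4 of 21, with ubc-12 (117) highest. The replication and cell cycle list, which takes every cdk- symbol whatever its role, had 3 of 24 (cdk-9 at 132, cdk-5 at 116, cdc-6 at 108). Vesicle traffic had 5 of 40, led by vps-32.1 (192). Histone genes had 10 of 64 at 5 peaks, and these genes have near-identical copies, so the reads behind their peaks are uncertain. Of tRNA synthetase genes, 1 of 15 had one (ears-2, 262), a share of 6.67%.

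Counts are too small to set several lists apart from the 9.54%. Among those above, examples are RNA polymerase (3 of 15), ubiquitin ligation (4 of 21) and replication (3 of 24). The same holds for the next 3 lists. Nuclear hormone receptors had 3 of 45 (nhr-68, 197; nhr-47, 158; nhr-142, 83), cuticle collagens 2 of 43 (col-71, 117; col-38, 98.1) and neuropeptides and insulins 0 of 16 (interval up to 19.4%). The peak of col-38 is shared with rpl-5 and that of nhr-47 with dnj-19. Of 9 homeobox genes with two-strand sequence, 3 had one (33.3%), a share above the 9.54% that rests on few genes. These are ceh-38 (195, with 79.9 and 106 in the replicates), duxl-1 itself and ceh-99 (67.2, with 22.1 and 36). The duxl-1 summit lay 34 bp downstream of its start and 784 bp upstream of that of ZC204.14, with a signal of 184 and with 124 in replicate 1 and 79 in replicate 2. duxl-1 runs from 1663699 to 1665766 on the plus strand of chromosome II. The transgene brings extra copies of duxl-1 sequence, whose part in this peak was not tested.

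**Figure D5:**
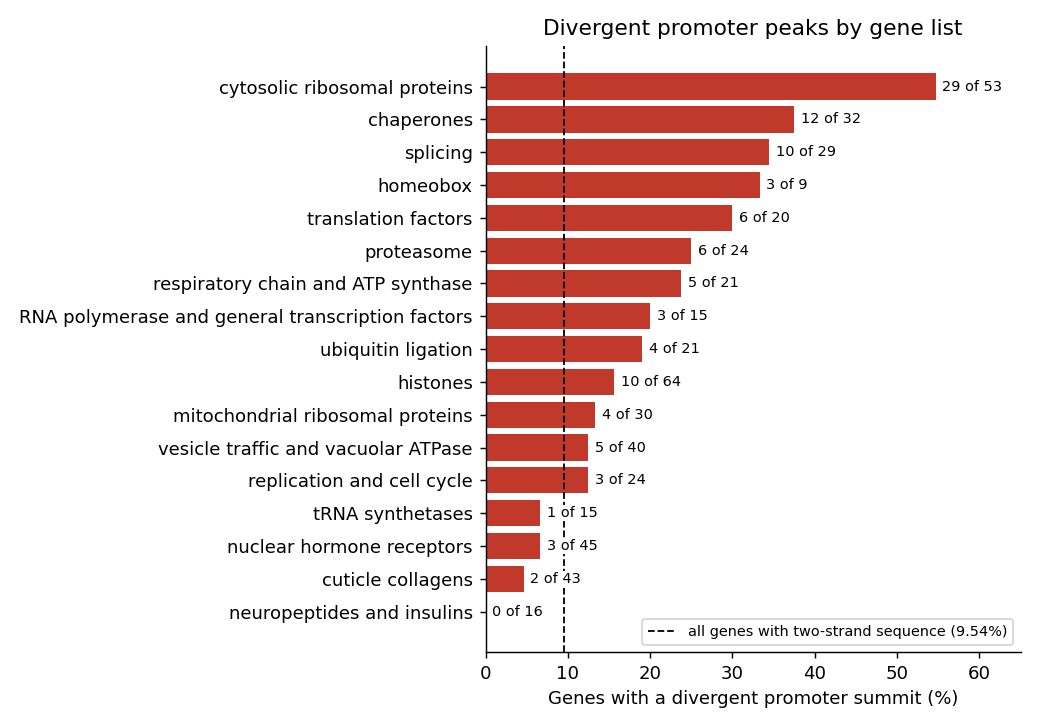
Percent of the genes of each list, among those with two-strand promoter sequence, that have a divergent promoter summit; labels give the number of genes with a peak of the number in the list, and the dashed line marks the 9.54% over all such genes. Cytosolic ribosomal proteins stand at 29 of 53 genes and neuropeptides and insulins at 0 of 16.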

How the data were processed

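Anti-GFP chromatin immunoprecipitation followed by sequencing was done on 2 biological replicates. The authors deposited a candidate list of 30000 regions per replicate and one for the pooled replicates, as well as a list cut at an irreproducible discovery rate, per the deposited README files. Each region has a signal, the enrichment in the peak caller's units, as deposited by the authors. The -log10 of its q-value was likewise deposited, which sits at its ceiling of 2.43 in all 1980 thresholded peaks and was used for nothing. For the aligner, the peak caller and the threshold, names and settings were not given in the sources used here. The thresholded ce11 list equals the 1980 pooled candidates of highest signal, down to 65.0.

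Summits were placed on the WBcel235 genome with Ensembl release 115. Two-strand positions are every 10th autosomal base in promoter windows of both strands, away from small RNA genes, 220073 in all. Words were searched on both strands within 50 bp of a position. A replicate counted as having a peak when one of its 1980 strongest candidates overlapped it by at least 1 bp. Intervals are 95% Wilson intervals over peaks and cover counting error only. No test was run, because both samples form 1 group and peaks of 1 list are not replicates of a condition. The class assignment was tested on simulated data. These peaks, the gene lists and words were chosen with earlier results of these data known, and the 8-letter words were found in the windows themselves. Genes were named by fixed rules: the 15 strongest peaks in both replicates, the 3 weakest, up to 4 per list, those nearest each limit, the extremes of distance and of replicate ratio, and duxl-1; 8-letter word examples are the 4 strongest per word on chromosomes II to V (3 for AGACGCAG) without an annotated UTR or coding base. Alternatives were another promoter window, 1 start per gene, 500 bp from small RNA genes, the 990 strongest peaks, each replicate alone, a stricter overlap and a window of 100 bp to either side. Scripts ran in Python 3.11.15 with pandas 2.3.3, numpy 2.4.6 and scipy 1.17.1.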

Additional observations from a re-analysis of the deposited data

How the results depend on the processing

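With promoter windows of 500 bp upstream to 100 bp downstream, divergent promoters held 12% of all autosomal peaks, against 16.3%; the median distance between starts was 367 bp and to the nearest start 120 bp, 10.2% of two-strand regions held a summit, the signal ratio of divergent to one-direction peaks was 1.12 against 1.18, TAATTA was in 2.14% and median G+C was 47.5%. With 1 start per gene, the nearest start was at 137 bp and the signal ratio 1.16. In the 990 strongest peaks of the list, 21.4% of autosomal peaks were at divergent promoters, 100% were head-to-head, 90% ranked within the top candidates of each replicate, the distance between starts was 453 bp, 5.77% of regions held a summit, the signal ratio was 1.08 and TAATTA was in 1.25%. A reciprocal overlap of 50% gave 37.8% in both replicates. Within 100 bp of the summit, TAATTA was in 5.51% and median G+C was 41.3%. From single replicates, ranges were 13.6% to 15% of autosomal peaks, 99.5% to 100% head-to-head, 451.5 to 467 bp between starts, 134 to 135 bp to the nearest start, 7.76% to 8.45% of regions, a signal ratio of 1.21 to 1.23, TAATTA in 1.4% to 1.7%, G+C of 48.5% and 26 to 27 ribosomal protein genes against 29. That number was 24 with the shorter promoter windows, 24 at 500 bp from small RNA genes and 20 in the 990 strongest peaks. The share in both replicates cannot be given from 1 replicate. The recurrent words, an alternative chosen after seeing the data, were in 43.3% and 43.4% of single-replicate peaks, 48.8% of the 990 strongest and 48.8% of the wider windows, against 44.1%. These words were picked from the pooled windows of the same replicates, so the single-replicate shares are no separate check. The signal ratio stayed above 1 in every setting tried. The share in both replicates fell below 50% with the reciprocal overlap only. For TAATTA, G+C and the recurrent words the two-strand positions were not recomputed under the alternatives. The cause of these shifts was not tested. No paired analysis was possible because both samples belong to 1 group. The unknown depth in reads limits what weak peaks can show.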
